A study of Mus musculus with 12 samples.

Results

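The genes of the lysosome's degradative machinery were followed over 12 arrays: 39 genes for enzymes, activators, membrane proteins and the proton pump, with the transcription factor gene Tfeb. Members were taken as every probe set, the group of short probes that reads a transcript, whose platform annotation gives one of these genes as its single symbol. This gave 81 of 45037 probe sets and 38 of 39 genes. Cd63, a tetraspanin of the lysosomal membrane, had no probe set with a single symbol and was not analysed here. A gene with several probe sets was represented by the brightest, among 18193 genes taken in the same way.

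The lysosome breaks down proteins, glycans and lipids that reach it by endocytosis, phagocytosis and autophagy. Its hydrolases work at acid pH, which the V-ATPase maintains by pumping protons across a membrane protected by heavily glycosylated proteins. TFEB, a basic helix-loop-helix factor, activates many of these genes when it enters the nucleus. In bone marrow cultures, macrophages and osteoclasts are known for abundant lysosomal enzymes, while fibroblast-like stromal cells carry the same organelle.

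The series compared an MSC and HSC co-culture group (treated, 6 arrays) with an MSC-only group (control, 6 arrays), to see what hematopoietic stem/progenitor cells (HSCs) change in mesenchymal stem/stromal cells (MSCs). Wells received 3000 MSCs, with 7000 HSCs added in the co-culture group, and RNA was taken on day 6. All cells were labelled as coming from male C57BL/6 mice aged 6 weeks. Sorting had taken MSCs by PDGFR-α and Sca-1 and removed cells bearing CD31, CD45 or TER119. HSCs were taken by c-Kit and Sca-1 from cells that lacked lineage markers. For other readouts the study sorted co-cultured cells by EGFP, and its text on the arrays does not say whether cells were separated before RNA was taken. The labels do not say whether numbered arrays came from separate cultures or animals, so p-values measure only the spread between these samples. In such bulk RNA, fewer cells of a type and less RNA per cell cannot be told apart.

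The markers of other cells stood beside these genes on every array. All 17 macrophage markers were measured, with a median level at the 99.5th percentile of all genes. Their summed signal was 269005 to 333259 in co-cultures and 254936 to 347358 in MSC-only cultures. Ptprc, which encodes the CD45 used to exclude cells from the MSC sort, was at the 98.5th percentile. The 16 stromal markers had a median at the 75.8th percentile and sums of 37863 to 76223 in co-cultures, against 39807 to 80505 in MSC-only cultures. By gene, 12 of them had a lower and 4 a higher mean in co-culture, where 53.3% of all genes were higher. Their median difference was -0.26 on the log2 scale, against 0.01 for all genes, and 0 passed adjustment (limma). Without the arrays numbered 3 and 4, treated below, these medians were -0.44 and 0.02. Of the 9 osteoclast markers, Calcr, Ocstamp and Dcstamp averaged under a signal of 50. Atp6v0d2, itself a V-ATPase subunit gene, was bright, with means of 15325 in co-cultures and 13081 in MSC-only cultures (98.8th percentile). Nfatc1 was at the 78.6th percentile, Ctsk at the 67.5th, and Oscar, Acp5 and Mmp9 at the 38.3rd to 55.3rd. Kit, Cd34, Flt3, Hlf and Mecom also averaged under 50 among the 7 measured markers of HSCs and progenitors. Gata2 and Meis1 were at the 50.8th and 47.6th percentiles. The part of macrophage RNA in the lysosomal signal was not tested.

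Sex-linked genes went against the label of male mice in 8 of 12 arrays, which had an Xist signal over 1000; MSC-only cultures 1, 2, 5 and 6 fitted the label. Xist, expressed from the inactive X chromosome, was at 13136 to 16604 in co-cultures 1, 2, 5 and 6, against 60.5 to 118 in the MSC-only cultures of those numbers. It was at 17369 to 17840 in co-cultures 3 and 4, and at 16810 to 21978 in MSC-only cultures 3 and 4. The Y-linked Eif2s3y was at 1022 to 1331 in co-cultures 1, 2, 5 and 6 and at 2604 to 2845 in MSC-only cultures 1, 2, 5 and 6, but at no more than 13.6 in the 4 arrays numbered 3 and 4. Results are therefore also given without the arrays numbered 3 and 4.

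Most of the lysosomal genes listed as members were among the brightest genes of these cultures. The median of the 38 genes lay at the 98.8th percentile of mean level, 18 were in the top 1% and 27 in the top 5% of all genes. The signal of a probe set depends on its probes as well as on the transcript, so these ranks are a rough description. By class, the median percentile was 99.7 for the soluble activators and carriers with Tfeb, 99.3 for the proteases, 99.1 for the membrane proteins, 98.9 for the glycosidases and lipases, and 97.3 for the V-ATPase. None of the 6 V-ATPase subunits was in the top 1%, but 4 were in the top 5%. These levels and the order of the classes depend on the genes listed. Outside the members, 16 further V-ATPase subunits had a median percentile of 95.1, with 3 in the top 1%. The median was 89.0 for 24 further hydrolases and partners (0 in the top 1%) and 86.3 for 15 further membrane proteins (1 in the top 1%). Read from each array alone, the median of all members stayed between 98.6 and 98.9.

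**Figure D1:**
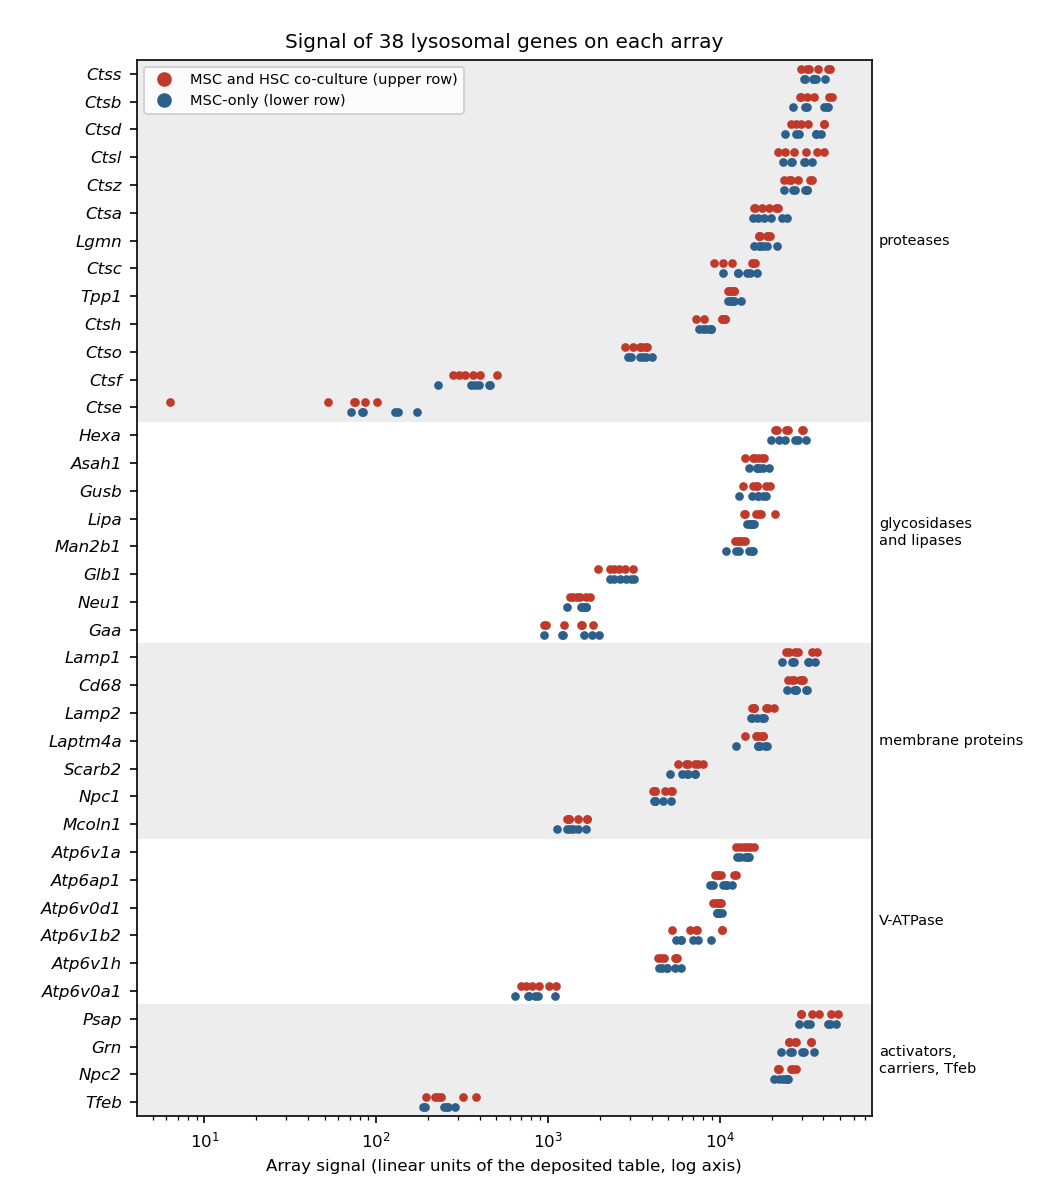
Signal of the brightest probe set of each of 38 lysosomal genes on each of 12 arrays (log axis, linear units of the deposited table), ordered within class by level; red points are the 6 co-cultures and blue points the 6 MSC-only cultures. Psap, Ctss and Ctsb lie at 26448 or higher on every array, Ctse at 173 or lower, and the 2 groups overlap for every gene.

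No lysosomal gene passed the test between the co-culture and MSC-only groups. Of the 81 probe sets, 0 passed limma's test at an adjusted p of 0.05, against 0.00444% of all 45037 probe sets, and 0 passed at an unadjusted p of 0.05, against 4.36% of all (2.81% higher and 1.55% lower). With the array sets, defined further on, as a block, 0 passed either threshold, against 0.00222% and 5.19% of all. The methods' unpaired test also gave 0 at either threshold, against 1 of all 45037 probe sets with adjustment and 1868 without. The mean was higher in co-culture for 20 genes and lower for 18, where 53.3% of all genes were higher. The median difference was 0.00 on the log2 scale for the members and 0.01 for all genes. After quantile normalization 16 members were higher and 22 lower, with medians of -0.01 for the members and 0.00 for all genes. After median centring 12 were higher and 26 lower, with medians of -0.04 for the members and -0.03 for all genes. For no member did the 6 co-cultures lie wholly above or below the 6 MSC-only cultures, as they did above for 0.132% and below for 0.077% of all genes. The 95% interval of the difference lay within 0.5 log2 units of 0 for 35 of 38 genes; the exceptions were Ctse, Gaa and Atp6v1b2.

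**Figure D2:**
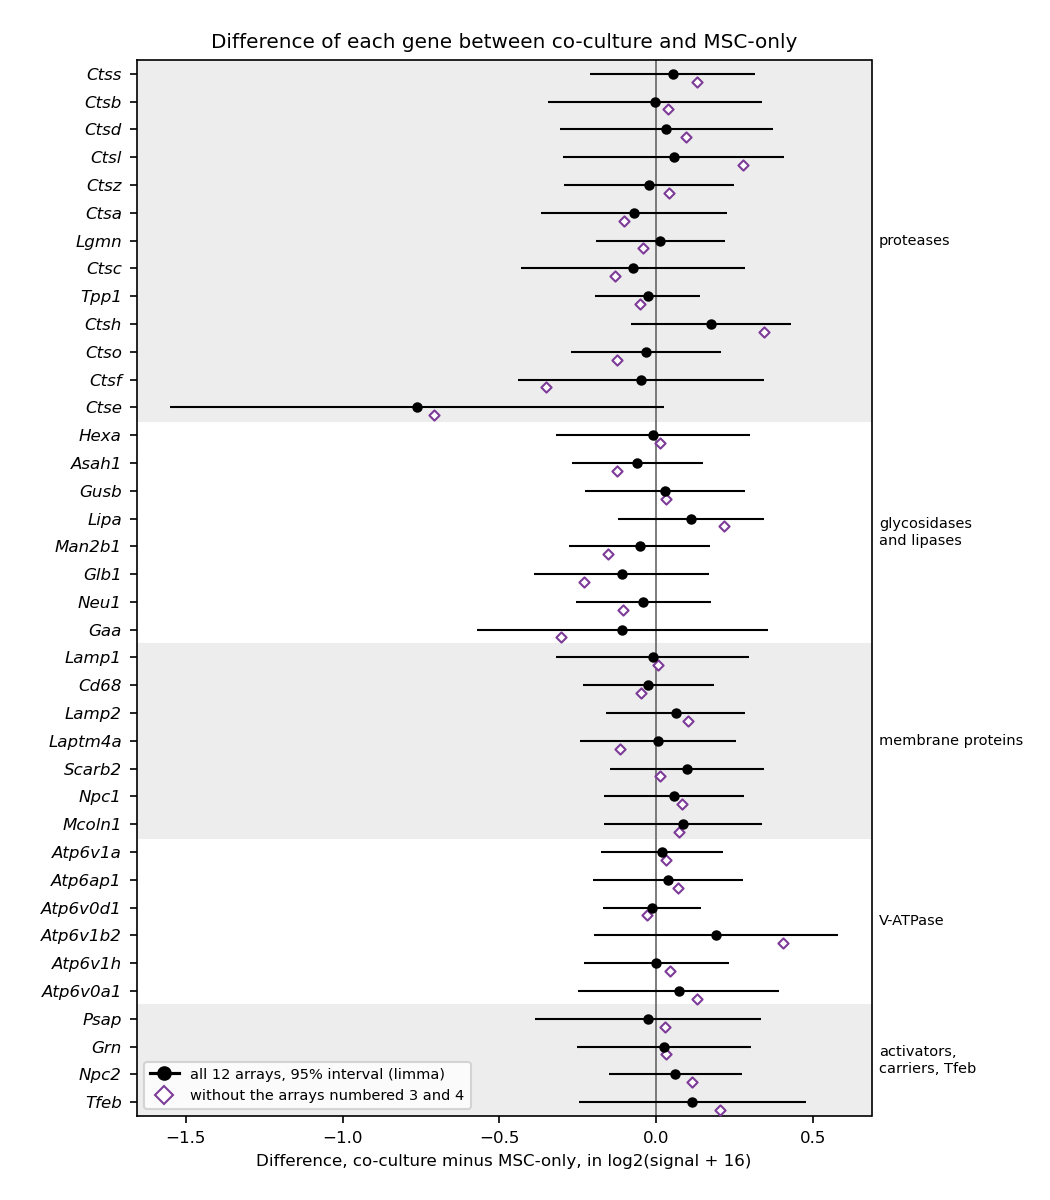
Difference of each lysosomal gene in log2(signal + 16), co-culture minus MSC-only, with limma's 95% interval over 12 arrays (black) and the difference without the arrays numbered 3 and 4 (open diamonds). All 38 intervals include 0, and the interval of Ctse, from -1.55 to 0.03, is the widest.

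The cathepsins were led by Ctss, Ctsb and Ctsd. Ctss, a cysteine protease that trims the invariant chain in antigen-presenting cells, ranged from 29705 to 43805 (median 35030) in co-cultures and from 30955 to 40636 (median 35130) in MSC-only cultures, a difference of 0.05 ± 0.12 (SE) on the log2 scale. Ctsb, a cysteine protease of broad specificity, ranged from 29096 to 44975 (median 33653) in co-cultures and from 26448 to 42631 (median 36393) in MSC-only cultures, a difference of 0.00 ± 0.16. The groups overlapped over most of their range in both genes. A dimmer probe set of Ctsb had the smallest p of those with a higher mean in co-culture, with 1476 to 2113 (median 1819) in co-cultures and 1327 to 1878 (median 1570) in MSC-only cultures, a difference of 0.20 ± 0.12 (unadjusted p = 0.118, adjusted p = 1.0, limma). Ctsd, the main lysosomal aspartic protease, differed by 0.03 ± 0.16, and the cysteine proteases Ctsl and Ctsz differed by 0.06 ± 0.16 and -0.02 ± 0.13. The carboxypeptidase Ctsa, which protects β-galactosidase and sialidase 1, the asparaginyl endopeptidase Lgmn, the dipeptidyl peptidase Ctsc and the tripeptidyl peptidase Tpp1 all differed by less than 0.1, with standard errors of 0.08 to 0.16. The cysteine protease Ctso was dimmer, at the 92.2nd percentile, and differed by -0.03 ± 0.11.

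Ctse and Ctsf were the dim proteases. Ctse, an aspartic protease of the endosomal system best known from gut and immune cells, was the dimmest member, at the 42.0th percentile. Its brightest probe set read from 6.3 to 100.5 (median 74.6) in co-cultures and from 71.1 to 173 (median 106) in MSC-only cultures. The lowest value was that of co-culture 2, and 4 co-cultures lay within the range of the MSC-only cultures. This was the member with the smallest p, a difference of -0.76 ± 0.36 with an unadjusted p of 0.0568 and an adjusted p of 1.0 (limma). Its other probe set ran the other way, with a difference of 0.20 ± 0.19. Ctsf was at 278 to 503 (median 347) in co-cultures and 228 to 458 (median 387) in MSC-only cultures, a difference of -0.05 ± 0.18. Its other, dimmer probe set had a higher mean in co-culture.

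Glycosidases and lipases were bright but for 3 genes. Hexa, the α-subunit of β-hexosaminidase, which acts on ganglioside GM2, ranged from 20881 to 30598 (median 24560) in co-cultures and from 19827 to 31746 (median 25639) in MSC-only cultures, a difference of -0.01 ± 0.14. Asah1, acid ceramidase, ranged from 14017 to 18065 (median 16270) in co-cultures and from 14803 to 19384 (median 16769) in MSC-only cultures, a difference of -0.06 ± 0.10. In both genes the groups overlapped over most of their range. The β-glucuronidase gene Gusb, the acid lipase gene Lipa, which frees cholesterol from its esters, and the α-mannosidase gene Man2b1 followed, with differences of 0.03, 0.11 and -0.05.

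By brightest probe set, the 3 dimmer enzymes of this class all had lower means in co-culture, within their error. Over all probe sets, 1 of Gaa was higher and 1 lower, and 2 of Neu1 were higher and 1 lower. The β-galactosidase gene Glb1 ranged from 1947 to 3133 (median 2500) in co-cultures and from 2295 to 3162 (median 2718) in MSC-only cultures, a difference of -0.11 ± 0.13 (unadjusted p = 0.404, adjusted p = 1.0, limma). Neu1, sialidase 1, differed by -0.04 ± 0.10. Gaa, which degrades glycogen, was the dimmest of the class at the 81.3rd percentile, with 941 to 1826 (median 1393) in co-cultures and 947 to 1970 (median 1420) in MSC-only cultures, a difference of -0.11 ± 0.21. The groups had nearly the same lowest value.

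Among membrane proteins, Lamp1, the major glycoprotein of the lysosomal coat, ranged from 24249 to 36740 (median 28028) in co-cultures and from 23041 to 35846 (median 29669) in MSC-only cultures, a difference of -0.01 ± 0.14. Cd68, a LAMP family member typical of macrophages, ranged from 24726 to 30482 (median 28074) in co-cultures and from 24712 to 31903 (median 27742) in MSC-only cultures, a difference of -0.03 ± 0.10. The groups overlapped over nearly their whole range in both genes. Lamp2, which also serves chaperone-mediated autophagy, and Laptm4a, a small protein with several membrane passes, differed by 0.06 ± 0.10 and 0.00 ± 0.11. Scarb2, the receptor that carries glucocerebrosidase to lysosomes, and Npc1, which passes cholesterol out of them, differed by 0.10 ± 0.11 and 0.06 ± 0.10. Mcoln1, a calcium channel of the lysosomal membrane, was the dimmest of the class, with 1283 to 1692 (median 1406) in co-cultures and 1125 to 1652 (median 1363) in MSC-only cultures, a difference of 0.09 ± 0.12.

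The V-ATPase has a cytosolic part that splits ATP and a membrane part that moves protons. Atp6v1a, the catalytic subunit, ranged from 12473 to 15884 (median 14032) in co-cultures and from 12547 to 14838 (median 14193) in MSC-only cultures, a difference of 0.02 ± 0.09. Atp6ap1, an accessory protein needed for assembly, ranged from 9360 to 12460 (median 9964) in co-cultures and from 8778 to 11689 (median 10652) in MSC-only cultures, a difference of 0.04 ± 0.11. The groups overlapped in both. The membrane-part subunit Atp6v0d1 had the narrowest spread of all members, a coefficient of variation of 3.06% over the 12 arrays, and differed by -0.02 ± 0.07. Atp6v1h, a regulatory subunit of the cytosolic part, had the same mean in both groups (0.00 ± 0.11), though a second probe set, with 280 to 488 (median 363) in co-cultures and 240 to 404 (median 306) in MSC-only cultures, was among those with the smallest p (0.22 ± 0.15, unadjusted p = 0.164, adjusted p = 1.0, limma). Atp6v1b2, the nucleotide-binding partner of the catalytic subunit, differed by 0.19 ± 0.18. Atp6v0a1, a subunit of the proton path, was the dimmest, with 696 to 1109 (median 846) in co-cultures and 642 to 1098 (median 808) in MSC-only cultures, a difference of 0.07 ± 0.15.

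Psap, the precursor of the saposins that present lipids to hydrolases, was the brightest of all members, with 29558 to 48689 (median 35925) in co-cultures and 28786 to 47400 (median 37902) in MSC-only cultures, a difference of -0.03 ± 0.17. Grn, which encodes progranulin, ranged from 25219 to 33879 (median 27580) in co-cultures and from 22787 to 35117 (median 28240) in MSC-only cultures, a difference of 0.02 ± 0.13. The groups overlapped over most of their range in both genes. Another probe set of Grn, with 18279 to 22775 (median 20623) in co-cultures and 17631 to 27171 (median 21793) in MSC-only cultures, differed by -0.12 ± 0.12 (unadjusted p = 0.338, adjusted p = 1.0, limma). Npc2, the soluble carrier that hands cholesterol to NPC1, differed by 0.06 ± 0.10. Tfeb itself was dim, at the 54.7th percentile, with 194 to 379 (median 234) in co-cultures and 188 to 289 (median 252) in MSC-only cultures, a difference of 0.11 ± 0.17.

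Promoters of 32 of the 39 genes were at hand in the RefSeq table of build GRCm38.p6 (300 bases, of which 250 lie before the start of the gene), and were searched for the motif that TFEB and its relatives bind. The core CACGTG, which reads the same on both strands, was present in 11 of the 32 genes, and in 8.09% of 27025 genes of the table. The longer form TCACGTGA, which contains the core, was present in 5 of the 32 genes and in 1.12% of all genes, or 0.974% of 32851 windows of that length. The sites of the longer form are shown because these 5 genes come from 3 of the 5 classes; 16 bases stand on each side and the motif is in capitals. The genes without an entry were Ctsh, Ctse, Asah1, Npc1, Atp6v1b2, Ctsb and Atp6v1h. A match is a description of letters and not a measured site of binding.
Ctsa (protease), chr2:164833744-164833783, plus strand, motif from base -13 to -6 from the start of the gene: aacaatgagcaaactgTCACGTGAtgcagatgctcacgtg
Ctsd (protease), chr7:142387903-142387942, minus strand, -99 to -92: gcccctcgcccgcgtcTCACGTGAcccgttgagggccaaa
Mcoln1 (membrane channel), chr8:3500457-3500496, plus strand, -46 to -39: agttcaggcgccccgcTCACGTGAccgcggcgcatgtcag
Atp6v0d1 (V-ATPase), chr8:105566045-105566084, minus strand, -4 to 4: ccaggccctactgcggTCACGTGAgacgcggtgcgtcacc
Atp6v1a (V-ATPase), chr16:44139368-44139407, minus strand, -132 to -125: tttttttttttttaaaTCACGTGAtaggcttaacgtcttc

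Positions count the first transcribed base as 1, with no base 0, and Ctsa held a second copy of the motif at bases 5 to 12. Of these 5 genes, Ctsd and Ctsa were in the top 1% of level, and Atp6v1a, Atp6v0d1 and Mcoln1 were at the 98.8th, 97.9th and 81.8th percentiles. Their differences, co-culture minus MSC-only, were between -0.07 and 0.09 on the log2 scale.

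Without the arrays numbered 3 and 4, 6 of 81 probe sets passed at an unadjusted p of 0.05, against 6.85% of all probe sets, and 0 passed after adjustment, against 0.0178% of all (limma, 4 co-cultures against 4 MSC-only cultures). The mean was higher in co-culture for 23 genes and lower for 15, where 53.7% of all genes were higher. Of the 6, 5 were higher in co-culture and 1 was lower, the brighter one of Ctsf. The 5 were a dim probe set of Ctsl, both of Ctsh, a dim one of Atp6v0a1 and the dimmer one of Ctsb. That of Ctsb differed by 0.31 ± 0.14 (unadjusted p = 0.0481, limma). The smallest p among the members was that of the dim probe set of Ctsl. It read 478, 418, 640 and 572 in co-cultures 1, 2, 5 and 6, against 246, 228, 302 and 304 in the MSC-only cultures of those numbers, and the groups did not overlap. In the arrays numbered 3 and 4 it read 227 and 245 in co-cultures, against 393 and 602 in MSC-only cultures. The difference was 0.92 ± 0.17 without those arrays (adjusted p = 0.354) and 0.28 ± 0.29 with them. The bright probe set of Ctsl differed by 0.28 ± 0.17 without them and by 0.06 ± 0.16 with them.

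Ctsh, a cysteine protease with aminopeptidase activity, did the same in both of its probe sets. The brighter read 10700, 10287, 10743 and 10327 in co-cultures 1, 2, 5 and 6, against 7512, 8919, 7919 and 8857 in the MSC-only cultures of those numbers, without overlap. In co-cultures 3 and 4 it read 8053 and 7222, against 8338 and 8762 in MSC-only cultures 3 and 4. The difference was 0.34 ± 0.11 without the arrays numbered 3 and 4 (adjusted p = 0.628) and 0.17 ± 0.12 with them (unadjusted p = 0.164, adjusted p = 1.0). The other probe set of Ctsh ranged from 4083 to 6468 (median 5674) in co-cultures and from 4025 to 5573 (median 4722) in MSC-only cultures. It differed by 0.40 ± 0.11 without those arrays (adjusted p = 0.552) and by 0.19 ± 0.12 with them (unadjusted p = 0.160, adjusted p = 1.0). By brightest probe set, Ctsh and Lipa, 2 of 38 genes, had all 4 co-cultures above all 4 MSC-only cultures, which held for 2.46% of all genes. Over all probe sets of the members the count was 5 of 81 (2 of Ctsh and 1 each of Lipa, Ctsl and Atp6v0a1), where 2.36% of all probe sets did so. No member probe set had all 4 co-cultures below, which held for 2.57% of all genes and 2.03% of all probe sets.

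The brighter of the 2 probe sets of Ctsf ran the other way. It read 278, 366, 328 and 301 in co-cultures 1, 2, 5 and 6. The MSC-only cultures of those numbers read 458, 376, 452 and 357, with a small overlap. In co-cultures 3 and 4 it read 503 and 401, against 397 and 228 in MSC-only cultures 3 and 4. The difference was -0.35 ± 0.14 without the arrays numbered 3 and 4 (unadjusted p = 0.0345, adjusted p = 0.712, limma), and its change between the 2 kinds of array numbers, tested as an interaction, was 0.90 (unadjusted p = 0.0148, adjusted p = 0.558).

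The change of the difference between the 2 kinds of array numbers was tested as an interaction. Over the members, 9 of 81 probe sets passed at an unadjusted p of 0.05, against 7.36% of all probe sets, and 0 passed after adjustment, against 0.0111% of all. The smallest p was that of the dim Ctsl probe set, with an interaction of -1.92 log2 units, the difference in the arrays numbered 3 and 4 minus that in the others (adjusted p = 0.205, limma). As the groups differ in Xist and Y-linked signal among the arrays numbered 1, 2, 5 and 6 and not among those numbered 3 and 4, the sex of the cells and the co-culture cannot be told apart in those 8 arrays.

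**Figure D3:**
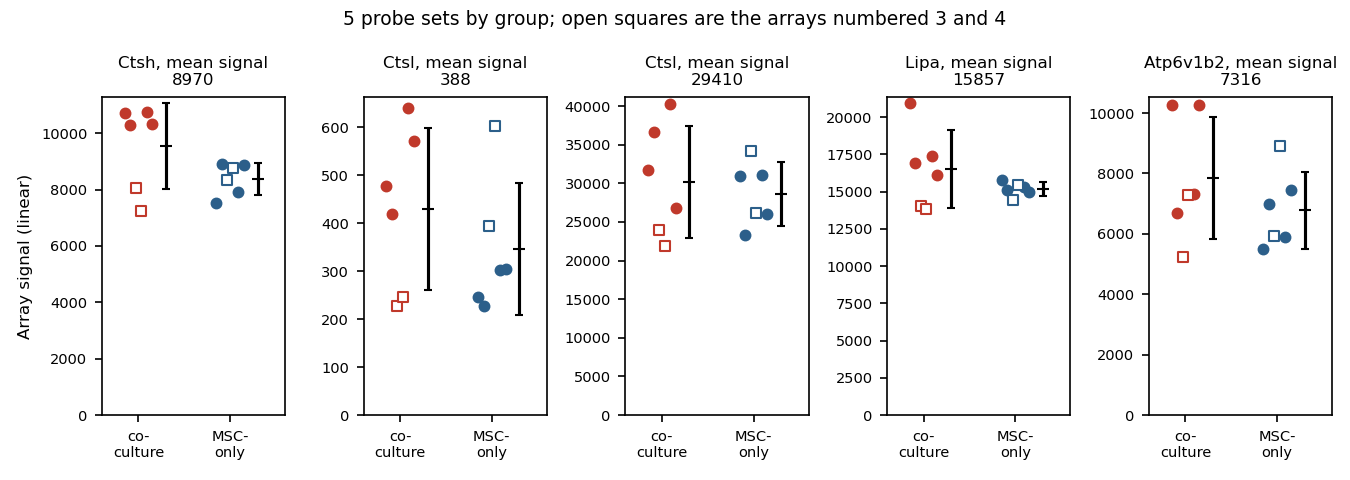
Signal (linear axis from 0) of 5 probe sets, chosen after their values were seen, in 6 co-cultures (left) and 6 MSC-only cultures (right), with mean and SD; open squares are the arrays numbered 3 and 4 and each panel gives its mean signal. For Ctsh the 4 filled co-culture points lie at 10287 to 10743, above every MSC-only point, and the 2 open ones at 7222 and 8053.

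The arrays themselves fell into 2 sets that cross the groups, seen on the first principal component of all other probe sets (21.6% of the variance). Set B held co-cultures 2, 3 and 5 and MSC-only cultures 1, 3 and 5, and set A held co-cultures 1, 4 and 6 and MSC-only cultures 2, 4 and 6. The sets were defined from the data, and no label names them, so they are described without a test. The mean was higher in set B for 26 of 38 members, with a median difference of 0.15 on the log2 scale, where 10017 of 18193 genes were higher and the median was 0.03. Of the 18 members in the top 1% of level 16 were higher in set B, where 156 of the 182 genes of that level were. Of the 20 members below it, 10 were higher and 10 lower, with a median difference of 0.01. Ctsa, Ctsc, Lamp1, Npc1, Gaa and Grn lay in set B above set A without overlap, 6 of 38 where 4.63% of all genes did so, and 0 members lay below, where 4.14% of all genes did.

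Gaa had the largest such difference, 0.66, with 1545 to 1970 (median 1704) in set B and 941 to 1241 (median 1086) in set A. Ctsc ranged from 14278 to 16341 (median 15533) in set B and from 9204 to 12760 (median 11109) in set A. The V-ATPase ran the other way, with 5 of 6 subunits lower in set B. Atp6v1b2 ranged from 5249 to 7336 (median 5924) in set B and from 6975 to 10268 (median 8179) in set A, with a small overlap. Of the 182 genes in the top 1%, 48 lay in set B above set A without overlap and 1 below. The level that 99.9% of probe sets stay under was 30560 to 39947 in set B and 27116 to 33748 in set A. After quantile normalization, which gives all arrays the same distribution, 18 members were higher and 20 lower in set B. Then Ctsc, Npc1 and Gaa lay above set A without overlap, and Cd68, Npc2, Gusb and Atp6v1a below, 3 and 4 of 38 members where 792 and 775 of 18193 genes did so.

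Markers moved with the sets as well, in both directions. Of the 17 macrophage markers 11 had a higher and 6 a lower mean in set B, and after quantile normalization 5 and 12. Itgam and Adgre1, surface proteins of macrophages, read 269 to 496 and 8833 to 12218 in set B, against 760 to 1746 and 13941 to 16686 in set A. The receptor genes Csf1r and Mrc1 ran the other way, at 30954 to 39489 and 21253 to 24552 in set B, against 22598 to 31022 and 15451 to 21562 in set A, with a small overlap. These 4 markers were chosen after their values were seen. The summed signal of all 17 macrophage markers was 286242 to 347358 in set B and 254936 to 305002 in set A. The summed stromal markers were 49229 to 80505 in set B and 37863 to 59040 in set A. Their part in the lysosomal values was not tested.

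**Figure D4:**
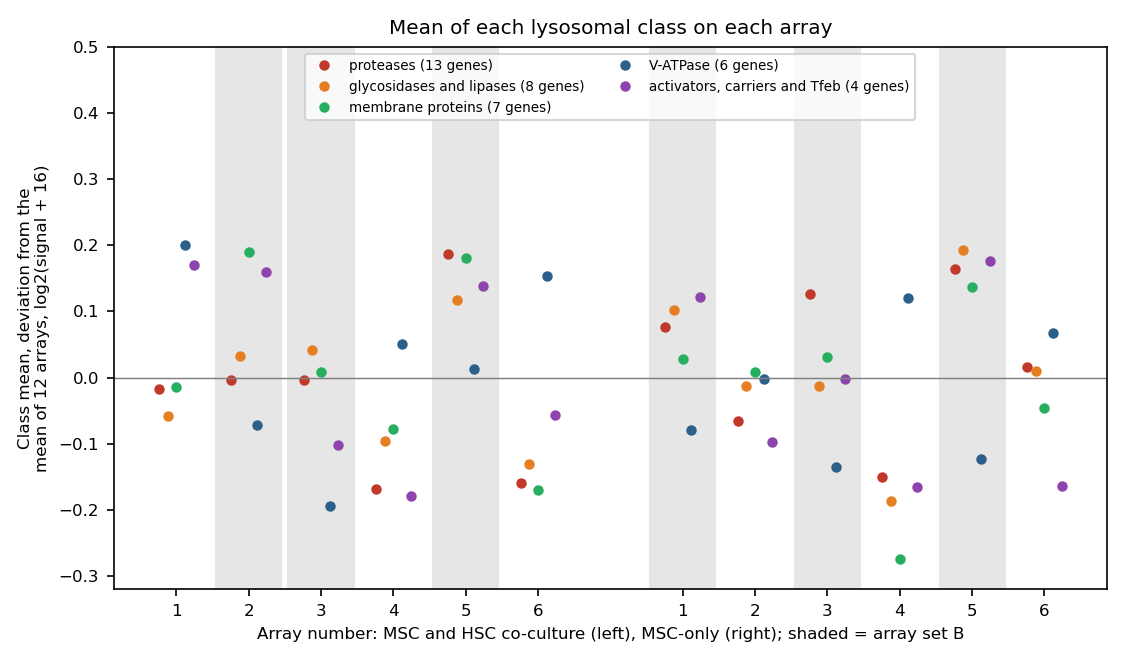
Mean of each lysosomal class on each array as the deviation from its mean over 12 arrays in log2(signal + 16), with co-cultures on the left, MSC-only cultures on the right and array set B shaded. The classes span 0.36 to 0.46 log2 units over the arrays; V-ATPase (blue) is highest in co-culture 1 and lowest in co-culture 3.

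Co-variation was described by Pearson's r between pairs of genes over the arrays, with no p, since all pairs share the same arrays and scaling. With group means removed, the median r over 703 pairs of members was 0.30 and 428 pairs were positive, while the median over all pairs of genes was 0.00. Within set A and within set B alone the median over members was 0.36 and 0.26. By class, the median was 0.35 for the proteases (53 of 78 pairs positive) and 0.21 for the glycosidases and lipases (15 of 28). It was 0.31 for the activators and carriers with Tfeb (3 of 6). After quantile normalization these 3 classes had medians of -0.04, 0.27 and -0.12. The membrane proteins had a median of 0.58 over 21 pairs, all positive. Within sets A and B their medians were 0.60 (19 positive) and 0.50 (16 positive), and after quantile normalization 0.27 (15 positive). The V-ATPase subunits had a median of 0.48 over 15 pairs, and 0.52 after quantile normalization. Within sets A and B their medians were lower, 0.16 (9 positive) and 0.25 (10 positive). With the means of the array sets also removed, their median was 0.07 (9 positive). Within co-cultures it was 0.76, and within MSC-only cultures 0.06. After median centring the medians were 0.45 for the membrane proteins and 0.77 for the V-ATPase. Between classes, the V-ATPase subunits had a median r of -0.40 with the membrane proteins and -0.22 with the proteases. With the means of the array sets also removed, these medians were 0.07 and 0.14.

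Level went along with this co-variation. The 18 members in the top 1% of level had a median r of 0.65 over 153 pairs, and the 182 genes of all kinds in the top 1% had 0.61. The 20 members below the top 1% had a median of -0.03 over 190 pairs. After quantile normalization the medians were 0.15 for the bright members, 0.01 for all bright genes and 0.08 for all members. With group and set means removed, 31 members had a positive median r with the others, highest in Ctss at 0.62, and 7 a negative one, lowest in Glb1 at -0.35.

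**Figure D5:**
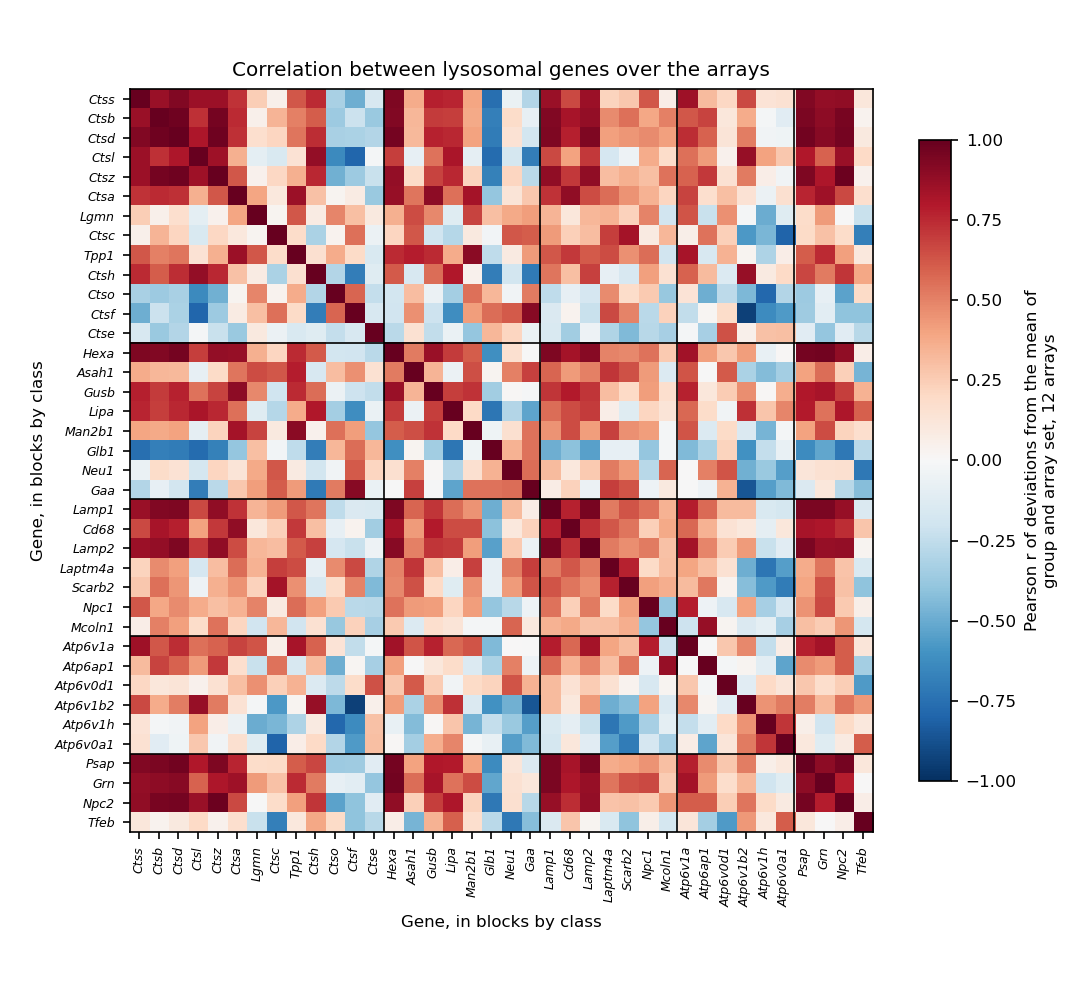
Pearson's r between each pair of 38 lysosomal genes over 12 arrays, after the mean of each group within each array set was removed; genes stand in blocks by class, ordered by level, and red is positive. Bright genes such as Ctss, Hexa and Psap form red bands, and the row of Glb1 is mostly blue.

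Class means were also set against the mean of the macrophage and stromal markers over the 6 arrays of each set. Group means were not removed here, and the exact two-sided test permuted all 6 arrays of a set regardless of group. A difference between the groups can therefore enter these relations, and its part was not tested. Of 20 relations, 7 had a Pearson p under 0.05 and 0 after Benjamini-Hochberg adjustment (smallest adjusted p = 0.0694, exact permutation test). The macrophage markers, with a median at the 99.5th percentile, were bright, as were most members. With group and set means removed, the 182 genes of all kinds in the top 1% of level had a median r of 0.54. The part of this shared rise and fall of bright genes in the relations was not tested. Proteases followed the macrophage markers in set A (r = 0.93, exact p = 0.00556; rho = 0.83, exact p = 0.0583; r = 0.93 without the 2 farthest arrays), with r = 0.38 in set B. Glycosidases and lipases followed them in set A (r = 0.83, exact p = 0.0417; rho = 0.89, exact p = 0.0333; r = 0.52 without the 2 farthest arrays) and in set B (r = 0.85, exact p = 0.0319; rho = 0.83, exact p = 0.0583; r = 0.73 without the 2 farthest arrays). Activators and carriers with Tfeb followed them in set B (r = 0.86, exact p = 0.0319; rho = 0.89, exact p = 0.0333; r = 0.78 without the 2 farthest arrays), with r = 0.28 in set A. Membrane proteins ran against the stromal markers in set B (r = -0.88, exact p = 0.00694; rho = -0.94, exact p = 0.0167; r = -0.85 without the 2 farthest arrays), with r = 0.53 in set A. The V-ATPase ran against the stromal markers in both sets, with r of -0.89 in set A (exact p = 0.0431) and -0.84 in set B (exact p = 0.0347), which became -0.87 and -0.23 without the 2 farthest arrays. Its rho was -0.77 in set A (exact p = 0.103) and -0.83 in set B (exact p = 0.0583).

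Related genes outside the members did not pass adjustment either. Their counts stand beside 53.3% of all genes with a higher mean in co-culture and 4.36% of all probe sets at an unadjusted p of 0.05. Of 24 further hydrolases and partners, 12 had a higher and 12 a lower mean in co-culture, and 1 of 53 probe sets passed at an unadjusted p of 0.05, a dim one of the galactosylceramidase gene Galc with a mean of 200.1 in co-cultures and 133 in MSC-only cultures (0.55, unadjusted p = 0.0258), whose brightest probe set differed by -0.15. The brightest were the carboxypeptidase gene Scpep1 (-0.02) and the fucosidase gene Fuca1 (-0.03). Of 15 further membrane proteins 9 were higher and 6 lower, with 0 of 34 probe sets. Laptm5, typical of blood cells, was the brightest there, with a difference of -0.01. Of 15 genes that sort enzymes to the lysosome 6 were higher and 9 lower, with 1 of 29 probe sets, and the mannose 6-phosphate receptor gene M6pr differed by 0.00. Ap3b1, a subunit of the adaptor AP-3, had the smallest p (-0.22, unadjusted p = 0.0429).

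Of 16 further V-ATPase subunits 11 were higher and 5 lower, and 2 of 32 probe sets passed at the unadjusted threshold, again beside 53.3% of all genes and 4.36% of all probe sets. These were 2 dim genes, Atp6v1b1 with a mean of 29.9 in co-cultures and 10.4 in MSC-only cultures (0.78, unadjusted p = 0.0110), and Atp6v0e2 with 51.3 in co-cultures and 77.2 in MSC-only cultures (-0.51, unadjusted p = 0.0230). The bright subunits Atp6v1g1 and Atp6ap2 differed by 0.03 and 0.00. Of 7 measured cathepsin inhibitors 6 were higher and 1 lower, with 0 of 8 probe sets at the unadjusted threshold, and the bright Cstb, Serpinb6a and Cst3 differed by 0.06, 0.07 and 0.04. Of 17 genes of the TFEB family and its control 10 were higher and 7 lower, with 2 of 43 probe sets, 1 of Fnip1 and 1 dim one of Mtor (41.9 in co-cultures and 22.5 in MSC-only cultures). Mitf, a relative of Tfeb, was at the 91.6th percentile and differed by 0.08, and Fnip1, a partner of folliculin, had the smallest p by brightest probe set (-0.22, unadjusted p = 0.0461).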

How the data were processed

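RNA of 6 co-cultures and 6 MSC-only cultures was measured on Affymetrix mouse arrays, and the deposited table holds the intensity of each probe set on a linear scale, as the authors obtained it with the GeneChip Operating Software. The 2% trimmed mean was alike on all arrays while higher quantiles differed, so the arrays had been scaled without quantile normalization; the summary method is not given in the sources used here.

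Intensities were taken as log2(signal + 16). Group differences came from limma (version 3.58.1, R 4.3.3), fitted with lmFit and eBayes to every probe set without a block or a filter, and p-values were adjusted by Benjamini-Hochberg across the 45037 probe sets, with 0.05 as the threshold. The fit was tested on simulated data. Array sets are the sides of the first principal component, computed without the members, and were defined after the data were seen. Members, gene lists and tests were chosen with earlier results of these data known. All members are named; full statistics are given for the 3 probe sets with the smallest p in each direction and, by class, for the brightest 2 and the dimmest gene, and of each other list up to 4 genes are named. Lipa and the dim probe sets of Ctsl and Atp6v0a1, and the genes that separate the array sets, and the dim probe sets of Galc and Mtor, were chosen after their values were seen. Alternatives covered scaling, the added constant, dim probe sets, the replicate block, the methods' unpaired test, and leaving out arrays. The number of arrays limits the precision.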

Additional observations from a re-analysis of the deposited data

Results flagged for a closer look

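In 76 groups of 6 values (38 genes in 2 groups), 2 had an array far from the others by Dixon's criterion, which chance meets in about 1 in 20 groups. Both were MSC-only culture 4. Neu1 read 1295.4 there, against 1553.6 to 1663.2 in the other MSC-only cultures, and the co-cultures spanned 1343.1 to 1745.3. Laptm4a read 12326.2 there, against 16664.3 to 18884.9 in the other MSC-only cultures, and the co-cultures spanned 14052.1 to 17893.4. This array also had the lowest mean of all members.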

How the results depend on the processing

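Over all probe sets the count of adjusted calls was 2. It was 1 after quantile normalization, median centring, 75th percentile centring, with log2(signal + 1), with the methods' unpaired test and when the array set was a block. It was 0 with log2(signal + 64), with a mean signal of at least 100, with limma's trend and robust options, within either array set and within the arrays numbered 3 and 4. It was 8 without those arrays, and 0 to 4 when each array was left out. Of the members, 0 probe sets were called under any of these. Median centring left 12 members higher and 26 lower, with a median difference of -0.04 for the members and -0.03 for all genes. Leaving out each array gave 15 to 26 members higher. Of 1025 single differences under the alternatives, 10 moved by more than the replicate SD, all within the arrays numbered 3 and 4.

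When the replicate number entered the fit as a block, 0 probe sets were called. The deviations of the 2 arrays of a number correlated at -0.16, -0.13, 0.12, 0.15, 0.10 and 0.15 for the numbers 1 to 6, so 4 of 6 pairs were above 0.1 and 2 were below 0. Numbers 3 and 4 also shared their Xist and Y-linked signals across the groups. The pairing of the arrays is not settled by the labels.

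The median percentile of level was 98.4 over the mean of a gene's probe sets, and 98.9, 98.6, 98.9 and 98.9 from MSC-only cultures 2, 4, 5 and 6 alone. The median r of members, 0.30, was 0.0818 after quantile normalization, 0.24 after median centring, 0.36 and 0.26 within array sets A and B, 0.21 without the arrays numbered 3 and 4, 0.23 within co-cultures, 0.25 within MSC-only cultures, and 0.20 to 0.32 when each array was left out, lowest without MSC-only culture 4. The range of the mean of all members over the arrays, 0.28, was 0.12 after quantile normalization. The cause of these changes was not tested.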
